A study of Mus musculus with 4 samples.

Results

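The genes described here act in bile acid sensing, feedback or synthesis in the liver, or export components of bile. They are 10 genes taken by their symbols. Nr1h4, Nr0b2, Fgfr4 and Klb take part in bile acid sensing or in the feedback on synthesis. Abcb11, Abcb4 and Abcc2 export bile components, and Akr1d1, Hsd3b7 and Baat are enzymes of bile acid synthesis and conjugation. Cytochrome P450 enzymes and solute carriers were kept out of this set. All peaks carrying the symbol of such a gene were taken, and 0 of the 10 genes were without a peak. They held 19 of the 14693 m6A peaks listed for HKO livers and 13 of the 14057 listed for FF livers, on 10 of the 9650 genes that had a peak in either list.

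Liver RNA was profiled by MeRIP-seq, in which an antibody pulls down RNA fragments that carry N6-methyladenosine (m6A), and a peak marks part of a transcript where immunoprecipitated (IP) reads outnumber what the input library gives. The Alkbh5-HKO group (HKO, not spelled out in the labels) and the Alkbh5flox/flox group (FF, both alleles floxed) ate normal chow and were 9 weeks old. Each was 1 pool of 300 μg RNA from 3 mice, with 1 IP and 1 input library, and the Cre driver, the extent of the deletion and whether HKO mice carry the same floxed alleles are not given in the sources used here. ALKBH5 removes m6A from RNA. With 1 pool per genotype there is no replicate and no test between genotypes, and the peak lists hold no read totals, so depth is unknown and absence of a peak does not show absence of m6A. RNA levels are not listed either, and in bulk liver fewer cells of a type and less RNA per cell cannot be told apart. Of 5 hepatocyte marker genes (Alb, Apoa1, Ttr, Hnf4a and Cps1) all 5 had a peak in either list, Ttr and Cps1 in the HKO list alone, Alb in the FF list alone and Apoa1 and Hnf4a in both. Of 5 cholangiocyte markers 2 did, namely Sox9 in both lists and Spp1 in the HKO list.

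Bile acids are made from cholesterol in hepatocytes, joined to taurine or glycine, and pumped into the bile canaliculus. When they accumulate they bind the nuclear receptor FXR, the product of Nr1h4, which raises the repressor SHP (Nr0b2) and, in the ileum, a hormone that acts on the liver through FGFR4 and its co-receptor beta-klotho (Klb). Both arms lower bile acid synthesis. m6A is placed by a methyltransferase complex at short sequences with the core GGAC or, more loosely, DRACH (A, G or T, then A or G, then AC, then A, C or T), mostly towards the end of the coding sequence and beyond. Antibodies to m6A also bind a related methylated adenosine next to the cap of some transcripts.

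The 10 genes had more peaks, and more exonic length under them, in the HKO list than in the FF list. Several of the counts lay near the shares over all genes. All 10 had an HKO peak and 7 also had an FF peak, near the 75.6% of all genes with peaks that were in both lists. Fgfr4, Abcb4 and Akr1d1 had HKO peaks and no FF peak, 3 of 10 genes, against 13.2% of all genes with peaks. An FF peak and no HKO peak was found for 0 of the 10 genes, against 11.2% of all genes. With 10 genes, 0 lies near that share. Of the HKO peaks on these genes, 7 of 19 (36.8%) overlapped no FF peak, not far from the 28.5% of the whole HKO list. Of the FF peaks, 1 of 13 overlapped no HKO peak, against 25.2% of the whole FF list. Exonic length under peaks summed to 5986 bp in HKO and 3891 bp in FF, with a length-weighted mean fold over input of 15.1 in HKO and 7.44 in FF. Long peaks on Klb and Baat weigh most in these means, and the median folds per peak were 6.58 in HKO and 4.75 in FF. Over all genes the sums were 4811902 bp in HKO and 4460587 bp in FF, with mean folds of 20.5 in HKO and 15.3 in FF. The exonic length was greater in HKO for 10 of 10 genes, against 53.5% of all genes with peaks. Fgfr4, Abcb4 and Akr1d1 are among these by having no FF peak, so the count partly repeats the one above. For Nr0b2 the greater length came from an HKO peak without an FF counterpart, as its shared peak was the shorter in HKO. The HKO list had more peaks on 6 of the 10 genes (29.9% of all genes), the numbers were equal on 4 (44.0% of all genes), and the FF list had more on 0 (26.1% of all genes).

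**Figure D1:**
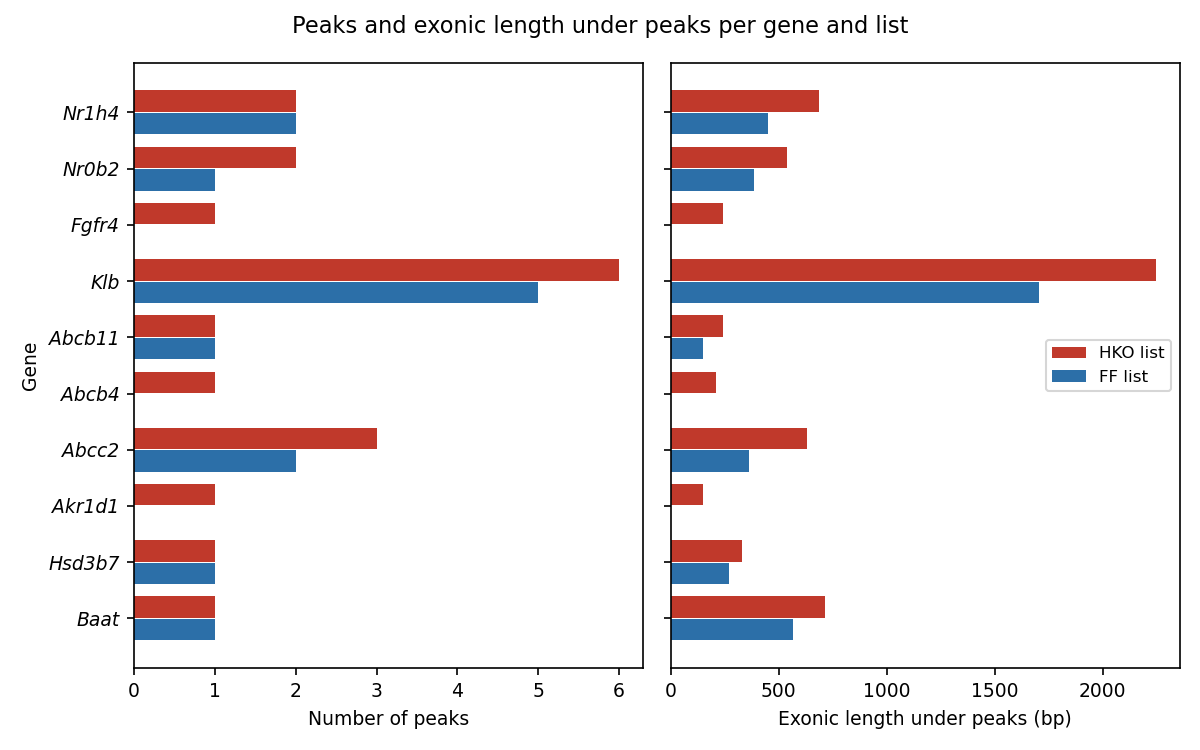
Number of peaks (left) and exonic length under peaks in bp (right) for each of the 10 genes, with the HKO list in red above the FF list in blue. Klb has the most peaks (6 in HKO and 5 in FF), and Fgfr4, Abcb4 and Akr1d1 have bars in the HKO list alone.

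Transcript starts are shown first, because 3 of these genes had peaks that reached the opening bases of the RNA as RefSeq places them. RefSeq (GRCm38.p6) gives a start sequence for 9 of the 10 genes, all but Baat. For Nr1h4 that start is an internal one, so the sequence under its FF peak, which began 30 bp after the first base of the gene span, was not analysed here. Counting the first transcribed base as 1, the HKO peak of Nr0b2 covered bases 1 to 50 of its window and the HKO peak of Akr1d1 bases 8 to 50. The Klb peaks of both lists covered bases 31 to 50. Bases 21 to 50 of these RNAs follow, written as DNA in the direction of transcription, at chr4:133553396-133553425, chr6:37530193-37530222 and chr5:65348431-65348460 on the plus strand, with DRACH matches in capitals.
Nr0b2: tgggaagAAACAgGAACAagatacTAACCa
Akr1d1: gtgcctctgccctgttcagaatcaccccag
Klb: cagggtctccggggaatgaatggattttct
Within the first 50 bases Nr0b2 had 3 DRACH matches, at bases 28, 34 and 45, all under its HKO peak. Akr1d1 had 0, and Klb had 1, AGACA at base 6, ahead of its peaks. GGAC was found in the first 50 bases of 0 of the 9 genes, and in 18.9% of all 32851 start windows. DRACH was found in 4 of the 9 genes (Nr0b2, Klb, Abcb11 and Abcc2) and in 54.4% of all windows. Both motifs were searched on the transcribed strand alone. The first transcribed base was A in Klb alone among the 9, against 34.4% of all windows.

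The sequence ahead of the start was also read for Nr0b2 and Klb, whose RefSeq start is the first base of the gene span. The 60 bases before the start lie at chr4:133553316-133553375 and chr5:65348351-65348410, with TATAAA in capitals.
Nr0b2: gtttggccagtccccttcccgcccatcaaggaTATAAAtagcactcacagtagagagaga
Klb: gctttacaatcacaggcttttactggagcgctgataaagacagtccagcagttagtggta
Nr0b2 has TATAAA beginning 28 bases before the start, and its HKO start peak is listed from the annotated start, 0 bp away. The first peaks of Klb (both lists) and Nr1h4 (FF) began 30 bp from their gene starts. Peak limits may thus move in steps counted from the annotated start, which was not tested. The 0 bp therefore does not locate the start independently of the annotation. TATAAA was present on either strand in the 60 bases before 3.92% of all starts, and Nr0b2 was the only one of the 9 genes to have it.

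Nr1h4 encodes FXR, the bile acid receptor, and lies on the minus strand of chromosome 10 from 89454234 to 89533645. It had 2 peaks in each list, of which 1 pair overlapped. The overlapping pair lay inside the gene, at 89498067 to 89506514 in HKO (fold over input 12.9, log10 q -292) and at 89498067 to 89498365 in FF (fold 4.75, log10 q -87). The HKO peak crossed an exon junction, with blocks of 7 bp and 351 bp, and its leading edge was 144 bp downstream of the internal start that RefSeq lists for this gene, itself 26987 bp into the gene span. The other peaks lay at opposite ends of the gene. The HKO list had a peak at 89454383 to 89454710, centred 313 bp from the gene end (fold 16.8, log10 q -212), which overlapped no FF peak. The FF list had a peak at 89533466 to 89533615, centred 104 bp from the gene start (fold 3.62, log10 q -3.08), which overlapped no HKO peak and was the sole FF peak of the 10 genes without an HKO counterpart.

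Nr0b2 encodes SHP, a repressor without a DNA-binding domain that is raised by FXR, and lies on the plus strand of chromosome 4 from 133553376 to 133556686. Near its end both lists had a peak, at 133556180 to 133556537 in HKO (fold 9.42, log10 q -90.7) and at 133556150 to 133556537 in FF (fold 5.26, log10 q -69.4). This was the only overlapping pair among the 10 genes in which the HKO peak was the shorter, 358 bp against 388 bp in FF. A further HKO peak covered the start of the gene, at 133553376 to 133553555 (fold 6.58, log10 q -5.54), and overlapped no FF peak.

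Fgfr4 and Klb encode the receptor and the co-receptor for the ileal hormone, and their peaks differed in number. Fgfr4, on the plus strand of chromosome 13 from 55152818 to 55168759, had 1 HKO peak at 55168400 to 55168639, centred 239 bp from the gene end (fold 3.56, log10 q -10.9), and 0 FF peaks. Its fold stood at percentile 14.7 of the HKO list. Klb, on the plus strand of chromosome 5 from 65348411 to 65386957, had the most peaks of the 10 genes, 6 in HKO and 5 in FF, under 2245 bp of exon in HKO and 1706 bp in FF.

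Klb peaks formed a group at the start and a group over the last part of the gene. At the start, the first pair was at 65348441 to 65348650 in HKO (fold 7.64, log10 q -3.08) and 65348441 to 65348560 in FF (fold 4.96, log10 q -2.31). The second was at 65348710 to 65348919 in HKO (fold 2.76, log10 q -3.9) and 65348859 to 65349038 in FF (fold 3.02, log10 q -2.05), and shared 61 bp. These pairs had the weakest q on Klb in each list. Further along, from 65379031 to 65379538, a peak had the same limits in both lists, with a fold of 55.6 in HKO (log10 q -48.6) and 11.8 in FF (log10 q -43.2). Its HKO fold ranked 517 in the HKO list, and its FF fold ranked 4960 in the FF list. Ranked by p-value, the peak stood at similar places, 2416 in the HKO list and 2327 in the FF list. Beyond it, a peak with its centre 3271 bp from the gene end in HKO and 3300 bp in FF had folds of 23.7 in HKO and 14.8 in FF, and the smallest q of the gene (log10 q -140 in HKO and -111 in FF). The pair that began at 65375693 had nearly the same fold in both lists, 7.18 in HKO and 7.83 in FF. An HKO peak at 65372235 to 65372414 (fold 6.96, log10 q -5.49) overlapped no FF peak.

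**Figure D2:**
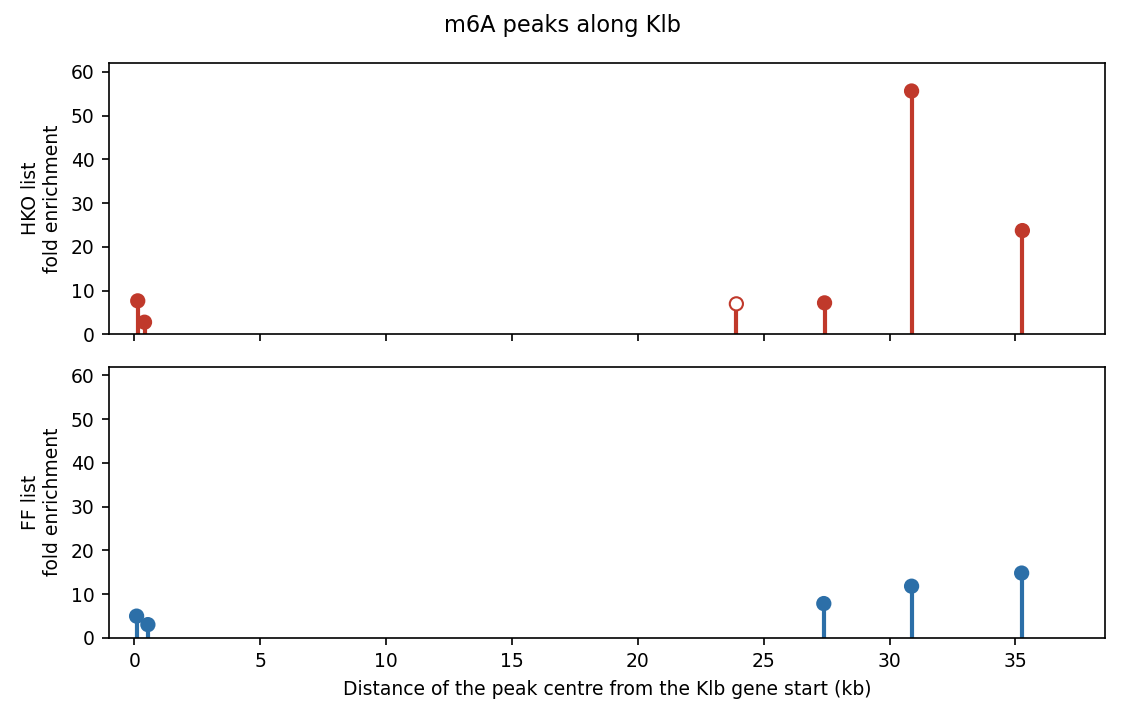
Fold enrichment over input of each Klb peak (vertical axis) against the distance of its centre from the gene start in kb, for the HKO list (top, red) and the FF list (bottom, blue). The open circle overlaps no peak of the other list, and the tallest HKO peak, at a fold of 55.6, has an FF counterpart at 11.8.

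Each of the export pumps carried a peak close to its gene end, and these end peaks had folds from 1.27 to 4.78. Abcb11 encodes the bile salt export pump and lies on the minus strand of chromosome 2 from 69238282 to 69342616. Its only peak in each list was centred 897 bp from the gene end in HKO (69239059 to 69243428, fold 2.16, log10 q -59.1) and 912 bp from it in FF (69239119 to 69239268, fold 1.27, log10 q -4.63). The FF fold of 1.27 stood at percentile 0.0925 of the FF list and the HKO fold of 2.16 at percentile 3.53 of the HKO list. Abcb4 encodes the transporter that brings phosphatidylcholine to the bile side of the membrane, and lies on the plus strand of chromosome 5 from 8893614 to 8959226. It had 1 HKO peak at 8959017 to 8959226 (fold 4.78, log10 q -26.4), which ended on the last base of the gene, and 0 FF peaks.

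Abcc2 encodes a canalicular pump for conjugated organic anions such as bilirubin glucuronide, and lies on the plus strand of chromosome 19 from 43782308 to 43838332. It had 3 HKO peaks and 2 FF peaks. The junction-spanning pair at 43786508 to 43796548 in HKO and 43786538 to 43796548 in FF had a fold of 6.51 in HKO (log10 q -9.05) and 1.92 in FF (log10 q -2.02), the weakest q of any peak on the 10 genes. The pair centred 746 bp from the gene end in both lists had a fold of 4.12 in HKO (log10 q -138) and 2.83 in FF (log10 q -50.3). Closer to the end, an HKO peak at 43837974 to 43838153 (fold 2.73, log10 q -25.8) overlapped no FF peak.

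The enzymes differed from each other in position and strength. Akr1d1 encodes the reductase that sets the bent ring shape of bile acids, and lies on the plus strand of chromosome 6 from 37529978 to 37574921. Its 1 HKO peak, at 37530180 to 37530330 (fold 4.24, log10 q -4.96), began 7 bp after the RefSeq start shown above and 202 bp after the first base of the gene span, and it had 0 FF peaks. Hsd3b7 encodes the dehydrogenase that acts on hydroxylated sterol intermediates, and lies on the plus strand of chromosome 7 from 127800609 to 127803802. Its peaks at 127803025 to 127803354 in HKO and 127803085 to 127803354 in FF had folds of 4.66 in HKO and 3.15 in FF. They were the only overlapping pair of the 10 genes with the smaller q in FF, where the log10 q is listed at minus infinity, against -274 in HKO.

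Baat encodes the enzyme that joins bile acids to taurine or glycine, and lies on the minus strand of chromosome 4 from 49489416 to 49507915. Its peak had the smallest p-values of the 10 genes, with a log10 p of -772 in HKO (rank 115 of the list) and -598 in FF (rank 102). The HKO peak ran from 49489714 to 49499650 with 715 bp of exon, in 2 blocks of 15 bp and 700 bp, and a fold of 19.7. The FF peak ran from 49489803 to 49490369 with 567 bp and a fold of 7.14. The peak centre was 655 bp from the gene end in HKO and 670 bp in FF.

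**Figure D3:**
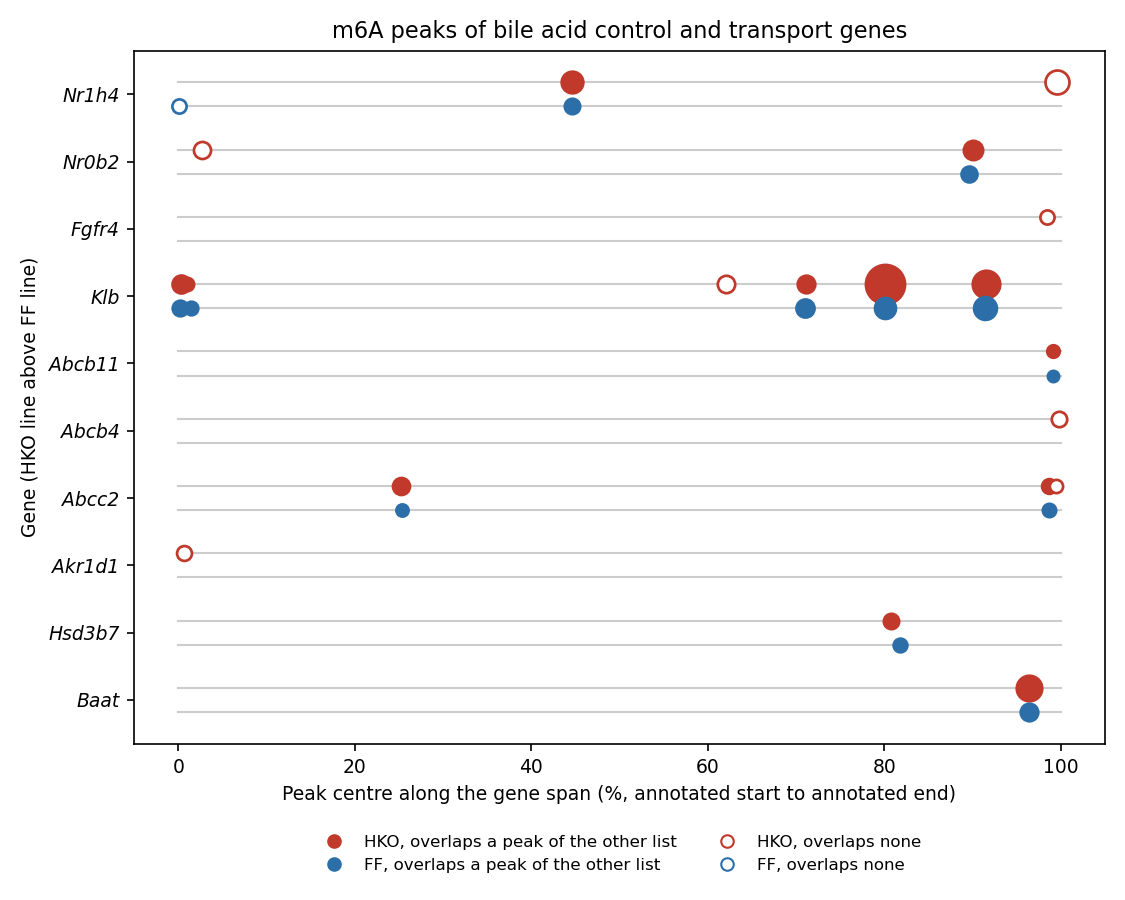
Centre of each peak along the gene span, in percent of the distance from annotated start to annotated end, with the HKO line above the FF line for each gene. Circle area grows with fold enrichment, filled circles overlap a peak of the other list and open circles do not. Of the 8 open circles 7 are HKO peaks, and the FF one lies at the start of Nr1h4.

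By position, 9 of 19 HKO peaks and 5 of 13 FF peaks of these genes were centred within 1000 bp of the gene end, against 31.0% of all HKO peaks and 26.6% of all FF peaks. Within 500 bp of the gene start were 4 HKO peaks (21.1%) and 2 FF peaks (15.4%), against 7.39% of all HKO peaks and 15.0% of all FF peaks. The FF share was thus near its background. The limit of 500 bp also split the second Klb pair, centred 404 bp from the start in HKO and 538 bp in FF. Of the 7 HKO peaks that overlapped no FF peak, those of Nr1h4, Fgfr4, Abcb4 and Abcc2 were at the gene end, where 33.6% of all such HKO peaks lay. Those of Nr0b2 and Akr1d1 were at the start, where 4.71% of all such HKO peaks lay. The remaining one was on Klb. Peaks that crossed an exon junction numbered 6 of 19 in HKO (Nr1h4, Klb with 2, Abcb11, Abcc2 and Baat) and 1 of 13 in FF (Abcc2), against 13.9% of all HKO peaks and 17.4% of all FF peaks. Most of these HKO peaks reached only slightly into a second exon. The smaller block was 7 bp on Nr1h4, 14 bp on Abcb11 and on 1 Klb peak, and 15 bp on Baat. It was 56 bp on the other Klb peak and 54 bp on Abcc2.

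The peaks present in both lists formed 12 overlapping pairs on 7 genes. The fold was the higher in HKO in 10 of 12 pairs, where it was so in 59.5% of all 11014 overlapping pairs. Both exceptions were on Klb. The median log2 ratio of HKO over FF fold was 0.72 over the 12 pairs (range -0.13 to 2.24) and 0.29 over all pairs (interquartile range -0.53 to 1.16). The largest ratios were those of the Klb peak with equal limits (4.71), the junction-spanning Abcc2 pair (3.39), Baat (2.76) and the inner Nr1h4 pair (2.72). The HKO peak was the longer in 10 of 12 pairs, against 50.6% of all pairs, and had the smaller q in 10 of 12, against 56.9%. The Baat pair has a log10 q listed at minus infinity in both lists, so neither q was the smaller. The differences in length were small, with a median of HKO minus FF of 60 bp, against 1 bp over all pairs. The folds come from separate IP reactions with their own inputs, so a ratio describes the lists and gives no direction of change in methylation, and 5 of the 12 pairs are on Klb.

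**Figure D4:**
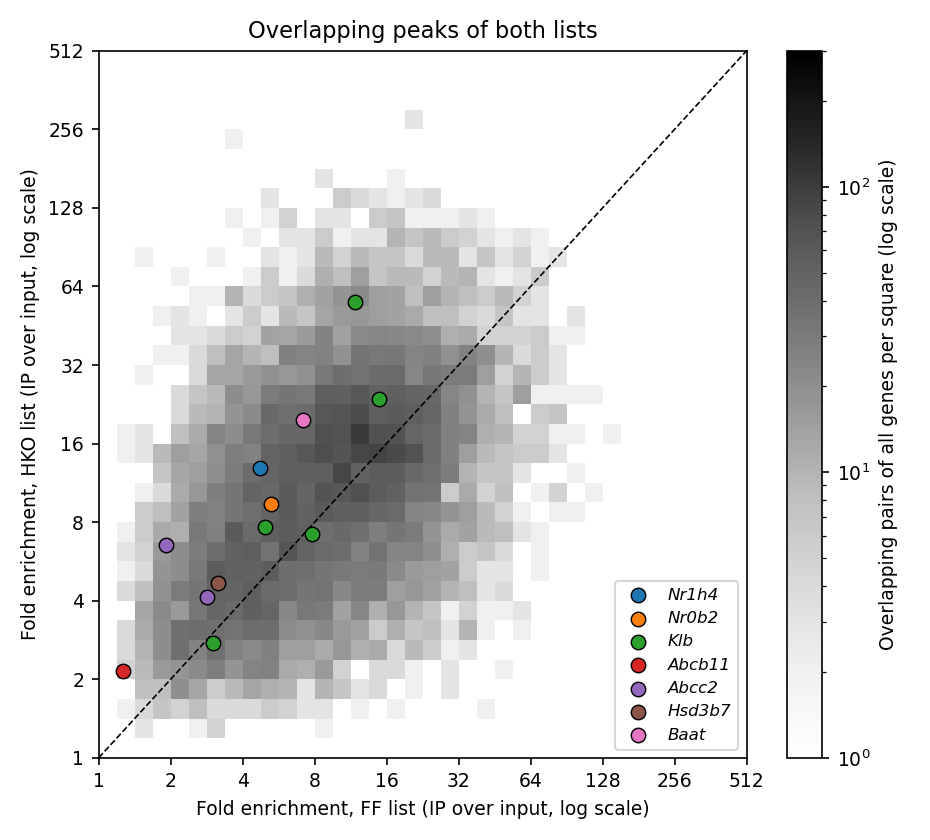
Fold enrichment of overlapping peaks in the HKO list (vertical, log scale) against the FF list (horizontal, log scale). Coloured points are the 12 pairs of the bile acid genes, grey squares count all 11014 overlapping pairs, and points above the dashed line of equality (10 of 12) have the higher fold in HKO.

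Folds of these genes were low within each list. The median fold was 6.58 over the 19 HKO peaks and 4.75 over the 13 FF peaks, against 10.4 and 8.8 over the whole HKO and FF lists. Below the list median were 14 of 19 HKO peaks and 11 of 13 FF peaks. The median log10 q was -26.4 in HKO and -43.2 in FF, against -8.7 and -7.79 over the whole HKO and FF lists. A q of 1e-05 or less was reached by 16 of 19 HKO peaks, against 65.5% of the HKO list, and by 8 of 13 FF peaks, or 61.5%, against 62.3% of the FF list, so by that count the FF peaks were near their background.

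Among 42 other genes of bile acid synthesis, transport and control, 35 had a peak, and 30 of these were in both lists. HKO peaks without any FF peak were found on 4 genes, and FF peaks without any HKO peak on 1 gene, where shares of 13.2% and 11.2% of all genes with peaks had HKO peaks alone and FF peaks alone. The 4 of 35 lie near that background. The 13 control genes that had a peak were all in both lists, among them Nr5a2, an activator of bile acid synthesis genes, with 2 peaks in each list. Of 13 synthesis genes with a peak, Cyp27a1 and Cyp39a1, sterol hydroxylases, were in the HKO list alone (folds 5.79 and 3.69), and Hsd17b4, a peroxisomal enzyme of side-chain shortening, was in the FF list alone (fold 1.91, log10 q -9.27). Cyp7a1, the rate-limiting enzyme of the classical pathway, had 2 peaks in each list. Of 9 transport genes with a peak, Slco1a4, an uptake carrier (fold 3.03), and Abcb1a, a drug efflux pump (fold 6.22), were in the HKO list alone. Slc51a, Slc51b, Abcc4, Vdr, Gpbar1, Ch25h and Cyp46a1 had no peak in either list. Slco1a4 and Abcb1a have close relatives in the genome that may share reads, so their peaks are uncertain.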

How the data were processed

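The authors deposited 1 peak list per genotype. Per the series design text, exomePeak 2.16.0 called IP against its own input at a q-value threshold of 0.05. GRCm38.p6, BWA 0.7.12, fastp 0.19.11 and HOMER 4.9.1 appear in the submitters' processing notes. The design text and sample protocols name different antibodies and library kits. The deposited p-value of each peak, its log10 p and log10 q (a score with no lower bound) and the fold, a ratio of IP over input, are the authors' values and served to describe and rank peaks within a list. The deposited block counts gave exons.

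Python 3.11.15, pandas 2.3.3, numpy 2.4.6 and matplotlib 3.10.9 were used. Peaks overlapped if exon blocks shared at least 1 bp on the same strand, tested on simulated data. Coordinates are GRCm38.p6, counted from 1. Position is that of the exonic centre relative to RefSeq gene spans, which matched all but 3 peaks in each list. The 10 genes and the lists were chosen with earlier results of these data known. All peaks of the 10 genes are described, and other pathway genes are counted and named if in 1 list alone or in neither. No genome or transcript models were used, so UTRs and motifs inside peaks were not analysed here.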

Additional observations from a re-analysis of the deposited data

How the results depend on the processing

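Fgfr4 and Abcb4 had HKO peaks and no FF peak under each setting of q, fold and list length tried, and 0 of the 10 genes had the reverse. The third gene depended on the threshold. With a q of at most 1e-05 asked of both lists Akr1d1 had no peak left and Abcb11 was in the HKO list alone (all genes: 15.8% HKO alone, 9.65% FF alone). At a fold of 2 or more in both lists Abcb11 joined the other 3 (all genes: 14.1% HKO alone, 11.9% FF alone). With the longer list taken to the length of the shorter, the 3 genes were the same, while over all genes 12% had HKO peaks alone and 12.3% had FF peaks alone. Other pathway genes in the FF list alone numbered 2 at that q and 0 at that fold, and those in the HKO list alone 7 at that fold. FF peaks of the 10 genes without an HKO counterpart numbered 2 with an overlap of 50% of the shorter peak required, and 0 at a q of at most 1e-05, whether asked of the FF peak or of both lists. The median log2 fold ratio of HKO over FF was 0.77 with that overlap (11 pairs; 0.30 over all such pairs), 0.76 with that q (8 pairs; 0.34 over all), and 2.24 for pairs with equal limits (1 pair; 0.25 over all). Within 200 bp of the gene end 1 peak was centred, in place of 14 within 1000 bp. Starts taken from the RefSeq promoter table, an alternative chosen after seeing the data, gave 5 peaks at starts in place of 6. No paired analysis was possible because each genotype had 1 pool. Motif shares in peaks and distances along transcripts, both planned, were not run. Unknown depth limits all counts.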
